A study of Homo sapiens with 16 samples.

Results

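Bicalutamide (BIC), an early non-steroidal antiandrogen, was compared with the later antiandrogens enzalutamide (ENZ) and apalutamide (APA, written ARN in the column labels) in prostate cancer cells that received no androgen. The comparison took 6 of the 16 RNA-seq libraries of the series, chosen by their labels alone: 2 of BIC.VEH, 2 of ENZ.VEH and 2 of APA.VEH. All libraries came from LNCaP, a human prostate cancer cell line grown as 1 line, which spent 72 h in growth medium (5% fetal bovine serum) and 48 h in 5% charcoal-stripped serum, a serum depleted of steroid hormones, before 48 h of treatment. The BIC.VEH, ENZ.VEH and APA.VEH cells received 10 µM of the antagonist in DMSO together with ethanol, the solvent of the androgen dihydrotestosterone (DHT). VEH cells received both solvents only, DHT cells received 10 nM DHT with the drug solvent, and BIC.DHT, ENZ.DHT and APA.DHT cells received 10 µM antagonist with 10 nM DHT. Each of the 8 groups had 2 libraries, numbered 3 and 7 in the labels, some with a further letter of unstated meaning that differs between groups. They are called replicate 1 and replicate 2 here. The labels call them biological replicates without saying whether they came from separate cultures, so that the p-values measure only the spread between these libraries, which may be technical.

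The values were TPM, the share of a library's transcripts that come from a gene, a relative abundance corrected for transcript length, and the table keeps no counts, so that the depth behind a value is unknown. The labels give about 40 M read pairs for each library. In the 6 libraries, 15010 to 15360 genes had a TPM of at least 1, and 16.1% to 17.8% of the TPM total came from mitochondrial genes. Of 60642 genes in the table, 26439 were at 0 in every library and 16636 were tested. The luminal markers KRT8, at 588 to 784 TPM, and FOXA1, at 211 to 228 TPM, were high in the 6 libraries. Of the 14 markers of other cells, the basal markers KRT5 and TP63, the immune markers PTPRC and CD3E, the endothelial marker PECAM1 and the stromal markers COL1A2 and DCN did not exceed 0.16 TPM in any library. VIM, at 12.3 to 22.3 TPM, COL1A1, at 21.5 to 29.9 TPM, CD68, at 0.92 to 12.1 TPM, ACTA2, at 2.64 to 4.89 TPM, and the endothelial VWF, at 0.73 to 1.54 TPM, were detected in the 6 libraries, while KRT14 and CD44 did not exceed 0.39 TPM there. The mean level of the 6 tested markers of other cells was 2.37 and 2.26 in BIC.VEH, 2.75 and 2.42 in ENZ.VEH and 2.42 and 2.34 in APA.VEH, as mean log2(TPM + 1), and its part in the results was not tested.

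Androgens act through a nuclear receptor that, once hormone is bound, attaches to chromatin and switches on genes of the secretory prostate epithelium, among them the kallikrein proteases of seminal fluid, while other genes are switched off. Antiandrogens occupy the hormone pocket of that receptor. Bicalutamide is an anilide with a sulfonyl link and a tertiary alcohol, whereas enzalutamide and apalutamide share a thiohydantoin core. The latter compounds differ from each other in that apalutamide carries a spiro-cyclobutyl ring where enzalutamide has a pair of methyl groups, and a pyridine where enzalutamide has a benzene ring.

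The genes that differed most between bicalutamide and the later compounds were KLK3, which encodes prostate-specific antigen, and KLK2, which encodes a kallikrein protease that can activate it. Both lie beside each other on the plus strand of chromosome 19, at chr19:50854915-50860764 for KLK3 and at chr19:50873439-50880567 for KLK2 (GRCh38.p14, RefSeq). The 250 bases before their RefSeq starts, at chr19:50854665-50854914 and chr19:50873189-50873438, are shown because these genes had the largest differences and because steroid hormone receptors, including that of androgens, are known to recognise half-sites of the form AGAACA. Capitals mark a stretch of 15 bases that begins with this hexamer in KLK3, and its closest match in KLK2.
KLK3: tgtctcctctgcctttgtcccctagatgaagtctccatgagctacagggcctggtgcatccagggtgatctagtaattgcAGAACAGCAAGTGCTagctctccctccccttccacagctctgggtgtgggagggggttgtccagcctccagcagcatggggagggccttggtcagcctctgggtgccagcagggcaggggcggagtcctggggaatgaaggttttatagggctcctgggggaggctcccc
KLK2: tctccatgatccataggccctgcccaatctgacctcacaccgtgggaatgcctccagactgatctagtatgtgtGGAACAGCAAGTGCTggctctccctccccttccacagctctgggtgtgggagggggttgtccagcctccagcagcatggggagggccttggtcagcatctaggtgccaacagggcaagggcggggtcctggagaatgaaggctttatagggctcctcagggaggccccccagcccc
The marked stretch, AGAACAGCAAGTGCT, began 170 bases before the KLK3 start. In KLK2 it read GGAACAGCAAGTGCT, began 176 bases before the start and carried 1 substitution, A1G, counted from 1 at the 5′ end of the stretch. The hexamer was searched on both strands, alone and with no other motif, in windows of 300 bases from 250 before to 50 after each start. It occurred in 14.8% of 35116 such windows in RefSeq, and in 4 of the 20 windows of the 10 described called genes that had any, which were windows of KLK3, PMEPA1 and TRPM8.

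Without androgen, 14 of 16636 genes passed the test between BIC.VEH and the mean of ENZ.VEH and APA.VEH (0.0842% of genes tested, limma on log2(TPM + 1), adjusted p below 0.05). Of these, 13 were higher in BIC.VEH (0.0781%) and 1 was lower (0.00601%), and 12 of the 13 are described here. At an unadjusted p below 0.05, 511 genes were higher (3.07%) and 445 lower (2.67%). In all 13 called higher, BIC.VEH was the highest of the 3 compounds in both replicates, against 13.9% of all genes tested. In 12 of the 13 both BIC.VEH libraries lay above all 4 libraries of the later compounds, against 3.97% of all genes. These shares are descriptions of genes that the same libraries chose. Of the 13, 12 were raised by DHT over VEH, against 10.6% of all genes. The DHT and VEH libraries do not enter the difference between the compounds. They do share in the estimate of the spread, so that these tests are not fully separate.

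The kallikreins differed most. KLK3 was at 358 and 206 TPM in BIC.VEH (replicates 1 and 2), at 72.9 and 71.5 TPM in ENZ.VEH and at 30.4 and 20.4 TPM in APA.VEH. VEH cells had 53.0 and 24.01 TPM and DHT cells 4102 and 2422 TPM. Both bicalutamide libraries thus lay above every library of the later compounds without DHT and of the vehicle, and far below those of DHT alone. The difference was 2.65 on the log2(TPM + 1) scale (SE 0.28, adjusted p = 0.0062, limma), a ratio of mean TPM of 5.78, and it was 2.90 in replicate 1 and 2.39 in replicate 2. KLK2 had 36.2 and 33.7 TPM in BIC.VEH, 9.09 and 11.6 TPM in ENZ.VEH, 2.50 and 2.86 TPM in APA.VEH and 4.78 and 3.60 TPM in VEH. Its levels in the 3 compounds did not overlap, with bicalutamide highest and apalutamide lowest, and the difference was 2.48 (SE 0.36, adjusted p = 0.035). KLK4, a kallikrein protease at chr19:50906351-50911395, had 150 and 112 TPM in BIC.VEH, 59.2 and 50.4 TPM in ENZ.VEH, 28.0 and 19.9 TPM in APA.VEH and 42.0 and 22.1 TPM in VEH. It followed the same order as KLK2, with a difference of 1.82 (SE 0.21, adjusted p = 0.007). KLK2 and KLK3 are similar in sequence, so that reads shared between them were divided by the authors' estimation.

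**Figure D1:**
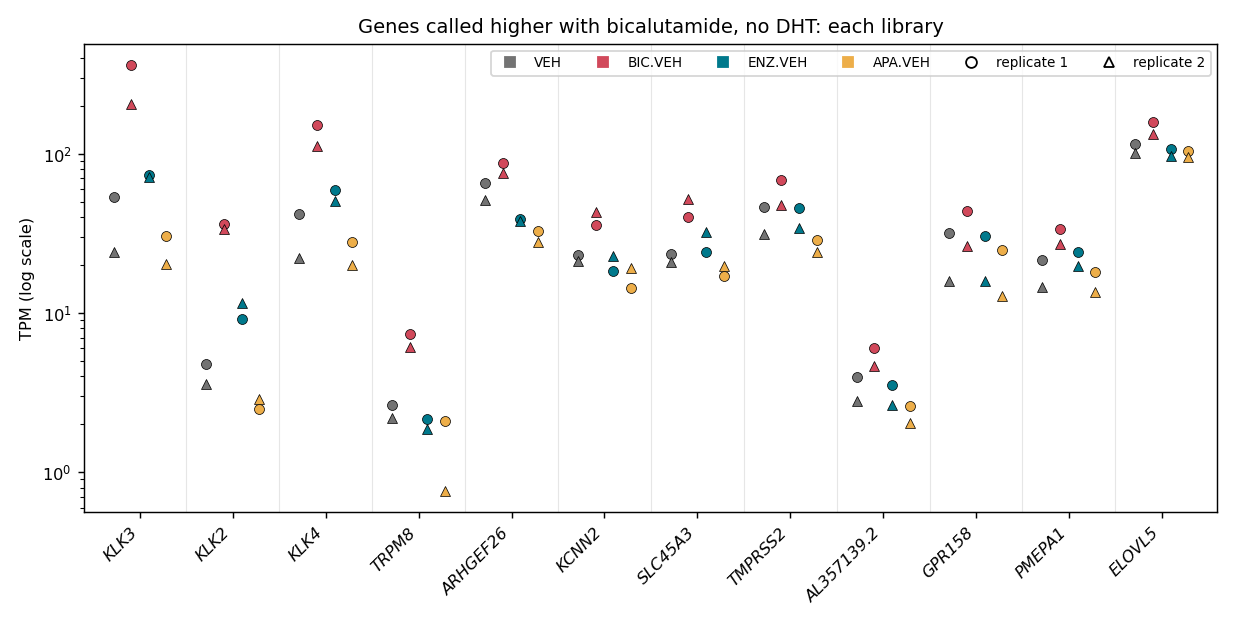
TPM on a log scale (vertical axis) of the 12 described genes called higher with bicalutamide, in each library of the vehicle and the 3 compounds (colours), with circles for replicate 1 and triangles for replicate 2. Both BIC.VEH points of KLK3, at 358 and 206 TPM, lie above the ENZ.VEH points at 72.9 and 71.5 TPM, and GPR158 is the gene in which a bicalutamide library, at 26.2 TPM, falls below one of the later compounds.

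The membrane proteins of the called genes showed smaller differences. TRPM8, a cation channel that senses cold (chr2:233917373-234019522), had 7.35 and 6.12 TPM in BIC.VEH, 2.17 and 1.87 TPM in ENZ.VEH, 2.10 and 0.76 TPM in APA.VEH and 2.64 and 2.18 TPM in VEH. The enzalutamide, apalutamide and vehicle libraries all lay below 3 TPM, and the difference was 1.54 (SE 0.16, adjusted p = 0.0062). KCNN2, a calcium-activated potassium channel (chr5:114055978-114496496), had 35.5 and 42.7 TPM in BIC.VEH, 18.4 and 22.9 TPM in ENZ.VEH, 14.3 and 19.0 TPM in APA.VEH and 23.0 and 21.1 TPM in VEH, a difference of 1.04 (SE 0.12, adjusted p = 0.0062). SLC45A3, a solute carrier used as a prostate marker (chr1:205657851-205680509), had 40.0 and 52.1 TPM in BIC.VEH, 24.2 and 32.3 TPM in ENZ.VEH, 16.9 and 19.7 TPM in APA.VEH and 23.3 and 20.7 TPM in VEH. Its difference was 0.98 (SE 0.11, adjusted p = 0.0062), and replicate 2 was the higher one in each compound. TMPRSS2, a transmembrane serine protease (chr21:41464305-41508158), had 67.8 and 47.3 TPM in BIC.VEH, 45.4 and 34.3 TPM in ENZ.VEH, 28.8 and 24.1 TPM in APA.VEH and 46.4 and 31.1 TPM in VEH. Its difference was 0.79 (SE 0.10, adjusted p = 0.0097), and the ENZ.VEH libraries lay close to those of VEH.

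ARHGEF26, a guanine nucleotide exchange factor (chr3:154121003-154257825), had the smallest adjusted p. It was at 87.0 and 75.8 TPM in BIC.VEH, 38.7 and 37.7 TPM in ENZ.VEH, 32.7 and 27.9 TPM in APA.VEH and 65.1 and 51.1 TPM in VEH. The vehicle libraries therefore lay between bicalutamide and the later compounds, unlike those of the kallikreins, which lay below the enzalutamide libraries. The difference of ARHGEF26 was 1.23 (SE 0.08, adjusted p = 0.00015, limma), while DHT cells, at 99.5 and 92.7 TPM, were 0.73 above VEH. An antisense gene, ARHGEF26-AS1, overlaps it. AL357139.2, a gene with no position in the tables used here, had 6.06 and 4.67 TPM in BIC.VEH, 3.50 and 2.63 TPM in ENZ.VEH and 2.62 and 2.04 TPM in APA.VEH (difference 0.79, SE 0.11, adjusted p = 0.023). It is the one called gene higher with bicalutamide that did not pass the test of DHT against VEH, where its difference was 0.25 (adjusted p = 0.16).

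A further 3 called genes lay outside the rule for naming genes and were added after their values were seen. ELOVL5, which elongates polyunsaturated fatty acids, had 158 and 133 TPM in BIC.VEH, 107 and 96.5 TPM in ENZ.VEH and 103 and 95.5 TPM in APA.VEH (difference 0.53, SE 0.06, adjusted p = 0.0097). PMEPA1, an androgen-induced membrane protein that restrains TGF-beta signalling, had 33.4 and 27.0 TPM in BIC.VEH, 23.9 and 19.7 TPM in ENZ.VEH and 18.00 and 13.46 TPM in APA.VEH (difference 0.68, SE 0.09, adjusted p = 0.029). GPR158, a G protein-coupled receptor, had 43.8 and 26.2 TPM in BIC.VEH, 30.4 and 15.9 TPM in ENZ.VEH and 24.9 and 12.7 TPM in APA.VEH (difference 0.75, SE 0.11, adjusted p = 0.035). GPR158 overlapped between the groups when replicates were pooled, yet bicalutamide was the highest within each replicate. NKILA overlaps PMEPA1 and GPR158-AS1 overlaps GPR158.

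FKBP5, a co-chaperone of steroid receptors and a standard androgen target, did not pass the test. It had 13.8 and 16.9 TPM in BIC.VEH, 10.5 and 13.3 TPM in ENZ.VEH, 10.5 and 12.7 TPM in APA.VEH and 12.0 and 13.5 TPM in VEH. Both bicalutamide libraries were above all of the others, and the difference was 0.36 (SE 0.11, 95% interval 0.13 to 0.60, adjusted p = 0.55). DHT raised FKBP5 to 81.4 and 92.8 TPM.

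The gene called lower was RNU5E-1, a spliceosomal small nuclear RNA (adjusted p = 0.0014). The apalutamide libraries without DHT held 8.68 and 11.9 TPM, while it was listed at 0 in every other library of the series, so that no fold is given. In the fit of all 16 libraries no protein-coding gene passed the test as lower with bicalutamide. Those with the largest lower values among genes with separated groups were DEGS2, an enzyme of sphingolipid synthesis, at 4.99 and 4.24 TPM in BIC.VEH against 14.2 and 10.2 TPM in ENZ.VEH and 11.3 and 6.97 TPM in APA.VEH (difference −1.02, adjusted p = 0.19). C16orf89 was at 3.49 and 5.64 TPM against 7.63, 10.9, 8.46 and 12.6 TPM (−0.98, adjusted p = 0.12, or 0.033 in a fit of the 8 libraries without DHT), and CDH26, a cadherin, at 2.88 and 4.29 TPM against 4.42, 8.44, 5.58 and 9.19 TPM (−0.76, adjusted p = 0.19). ITPR1, a calcium release channel of the endoplasmic reticulum, had a difference of −0.62 (adjusted p = 0.33), AMIGO3, an adhesion protein, one of −0.60 (adjusted p = 0.80), and NPIPB12, of a family of near-identical copies whose reads the authors' counting could split, one of −0.82 (adjusted p = 0.85). DHT against VEH gave −2.16 for DEGS2, −2.01 for C16orf89 and −1.60 for ITPR1.

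The compounds were then compared as 3 pairs at the same dose and time, to ask how the difference divides between the structures. Between the anilide bicalutamide and the thiohydantoin apalutamide, 14 genes passed the test (0.0842%), 13 of them higher with bicalutamide (0.0781%), or 12 genes when p-values were adjusted over the 3 pairs together (0.0721%). Between bicalutamide and enzalutamide 1 gene passed (0.00601%), ARHGEF26, with a difference of 1.07 (95% interval 0.87 to 1.27, adjusted p = 0.0028, limma) with 1177 genes at an unadjusted p below 0.05 (7.08%). The thiohydantoins apalutamide and enzalutamide also differed in 1 gene (0.00601%), RNU5E-1, with 909 genes at an unadjusted p below 0.05 (5.46%). Such counts depend on the threshold and do not compare the sizes of the differences between pairs.

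KLK3 differed by 3.39 between bicalutamide and apalutamide (adjusted p = 0.003) and by 1.90 between bicalutamide and enzalutamide (95% interval 1.18 to 2.61, adjusted p = 0.27). For apalutamide minus enzalutamide its difference was −1.498 (95% interval −2.21 to −0.78, adjusted p = 0.78). KLK2 had 3.29 (adjusted p = 0.012), 1.67 (adjusted p = 0.52) and −1.61 (95% interval −2.52 to −0.71, adjusted p = 0.78) in these 3 pairs, and KLK4 had 2.41 (adjusted p = 0.003), 1.23 (adjusted p = 0.40) and −1.18 (95% interval −1.71 to −0.65, adjusted p = 0.78). The apalutamide libraries were below the enzalutamide libraries in each replicate for all 3 kallikreins, yet none passed across all genes. TRPM8 had 1.72 (adjusted p = 0.0046) against apalutamide, 1.35 (adjusted p = 0.15) against enzalutamide and −0.37 (95% interval −0.78 to 0.05) between the thiohydantoins. ELOVL5 had 0.55 (adjusted p = 0.02), 0.51 (adjusted p = 0.15) and −0.03 (95% interval −0.19 to 0.13). For ELOVL5 the interval between apalutamide and enzalutamide did not reach the size of its difference from bicalutamide, whereas the kallikrein libraries of the 3 compounds did not overlap. Adjusted over the 3 pairs, bicalutamide against enzalutamide gave 0.21 for KLK3, 0.062 for TRPM8, 0.075 for ELOVL5 and 0.0021 for ARHGEF26.

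**Figure D2:**
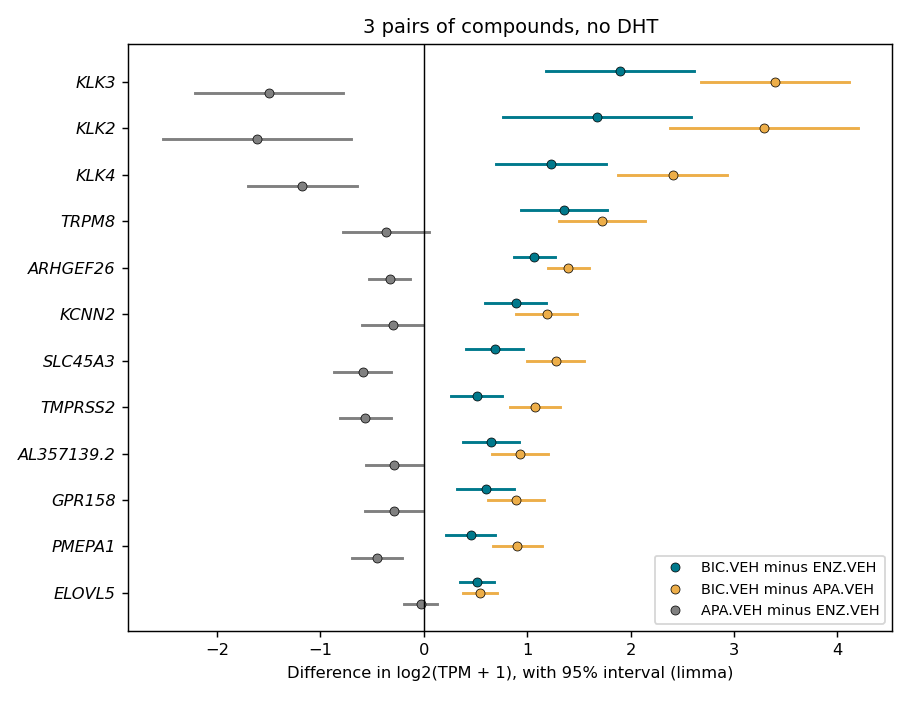
Differences in log2(TPM + 1) for the 3 pairs of compounds without DHT (horizontal axis, points with 95% intervals from limma) in the 12 described genes called higher with bicalutamide (vertical axis). KLK3 stands at 3.39 against apalutamide and 1.90 against enzalutamide, and the grey interval of apalutamide minus enzalutamide reaches from −0.19 to 0.13 in ELOVL5.

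DHT-responsive genes were then followed as lists made from the DHT and VEH libraries, whose values do not enter the difference between the compounds. These libraries do share in the estimate of the spread behind the tests. Of the 1762 genes raised by DHT (10.6% of genes tested), 1461 had a higher value with bicalutamide than with the later compounds (82.9%, against 45.5% of all genes). Their median difference was 0.10 on the log2(TPM + 1) scale, against −0.01 for all genes, and it was 0.09 in replicate 1 and 0.12 in replicate 2. Of these genes 12 passed the test. Bicalutamide was the highest of the 3 compounds in both replicates for 836 of them (47.4%). Of the 2797 genes lowered by DHT (16.8%), 2282 had a lower value with bicalutamide (81.6%, against 54.5% of all genes), with a median of −0.10, and none passed the limma test, 267 having a lower value at an unadjusted p below 0.05. Bicalutamide was the lowest in both replicates for 986 of these genes (35.3%, against 14.6% of all genes). By pair, the median of the raised genes was 0.10 for bicalutamide minus enzalutamide and 0.12 for bicalutamide minus apalutamide. That of the lowered genes was −0.13 and −0.08 in the same pairs.

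The size of the difference went with the size of the DHT response. Of 441 genes raised by DHT by at least 1 on the log2 scale, 403 were higher with bicalutamide (median 0.32), of 60 raised by at least 2 there were 57 (median 0.45), and all 18 raised by at least 3 were higher (median 0.73). Among these 18 were KLK2, KLK3, KLK4, TRPM8 and TMPRSS2. PGC, TUBA3D, ORM1 and TRIM49D2 were also among them, below 1 TPM in all 6 libraries compared and in VEH. They passed the filter only through libraries with DHT, and their values in the compared libraries lie near the floor. Of 547 genes lowered by at least 1, 477 were lower with bicalutamide (median −0.19), and of 61 lowered by at least 2 there were 49 (median −0.23). Only 6 genes were lowered by at least 3, of which 2 were lower with bicalutamide. Of these 6, SNORA78 was at 0 in every library compared, and AC242498.1 was at 98.9 and 0 TPM in APA.VEH. The lowered side therefore could not be read for an order at its end. Between apalutamide and enzalutamide, 804 of the 1762 raised genes were higher with apalutamide, with a median of −0.02, the same to 2 decimals as over all genes, of which 7531 of 16636 were higher. At the ends of the DHT response the medians of this pair were further from 0, at −0.11 in the 60 genes raised by 2 or more and 0.15 in the 61 lowered by 2 or more.

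**Figure D3:**
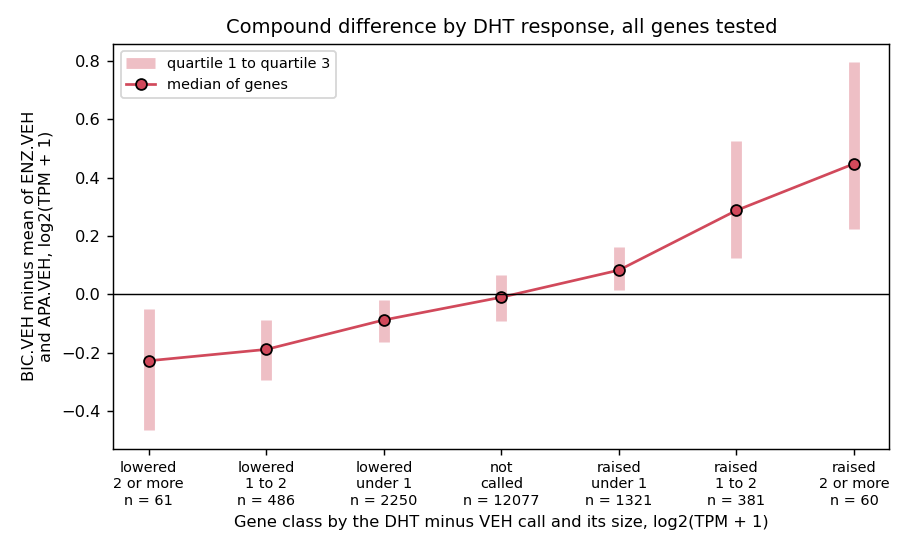
Median (points) and quartiles 1 to 3 (bars) of the difference between BIC.VEH and the mean of ENZ.VEH and APA.VEH, in log2(TPM + 1), for genes grouped by their DHT minus VEH call and its size (horizontal axis, with the number of genes). The median goes from −0.23 in genes lowered by 2 or more to 0.45 in genes raised by 2 or more, with −0.01 in the 12077 genes not called.

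Set beside vehicle, the median of the raised genes was 0.08 for BIC.VEH, −0.02 for ENZ.VEH and −0.04 for APA.VEH, and that of the lowered genes was −0.12, 0.01 and −0.02. These 3 values share the VEH libraries. The members of the S phase and G2/M lists are in part DHT-raised genes. Without them, in a variant added after seeing the data, 1380 of 1681 raised genes were higher with bicalutamide (82.1%), with a median of 0.10.

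A list of 42 genes known to be induced by androgen showed the pattern by name. DHT raised 38 of the 42 over VEH in this series. The list was also chosen with earlier results of these data known. It therefore largely repeats the DHT-raised genes and is not separate support. Of the 42 genes, 37 had a higher value with bicalutamide (88.1%, against 45.5% of all genes) and 8 passed the test as higher, against 0.0781% of all genes (KLK3, KLK2, KLK4, TRPM8, KCNN2, SLC45A3, TMPRSS2 and PMEPA1). The median difference was 0.28, and 0.25 without KLK2, KLK3 and KLK4. Bicalutamide was highest in both replicates for 30 of the 42 (71.4%) and lowest in both for 0, against 13.9% and 14.6% of all genes. Between apalutamide and enzalutamide 12 of the 42 had a higher value with apalutamide (median −0.08). The mean level of the list was 4.48 and 4.45 in BIC.VEH, 4.08 and 4.06 in ENZ.VEH, 3.92 and 3.86 in APA.VEH and 4.06 and 3.95 in VEH, as mean log2(TPM + 1). ACPP, prostatic acid phosphatase, with 61.8 and 57.4 TPM in BIC.VEH against 53.6, 61.7, 75.2 and 71.1 TPM, and NDRG1, a stress-response protein, with 73.4 and 51.6 TPM against 86.5, 49.0, 77.4 and 48.9 TPM, had differences of −0.12 and −0.04, with signs that depended on single libraries.

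Of 17 genes known to be repressed by androgen, 14 were tested, and 9 had a lower value with bicalutamide (64.3%, against 54.5% of all genes). None passed the limma test, and 3 were lower at an unadjusted p below 0.05, against 2.67% of all genes. The median of −0.08 joined opposite pairs, at 0.05 for bicalutamide minus enzalutamide and −0.26 for bicalutamide minus apalutamide. Between apalutamide and enzalutamide 13 of the 14 had a higher value with apalutamide (median 0.20). IFI27L2, of an interferon-inducible family, was at 31.2 and 20.5 TPM in BIC.VEH, 50.5 and 27.8 TPM in ENZ.VEH and 51.9 and 34.5 TPM in APA.VEH (difference −0.63, adjusted p = 0.31). OPRK1, the kappa opioid receptor, had a difference of −0.29 (adjusted p = 0.93). UGT2B17 and UGT2B11, enzymes of a family with similar sequences that conjugate steroids to glucuronic acid, had differences of 0.16 and 0.26 (both adjusted p = 1.0). The list was not uniform in its response to DHT, which lowered 11 of the 14 genes and raised 2, UGT2B11 being among the latter with 1.38.

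**Figure D4:**
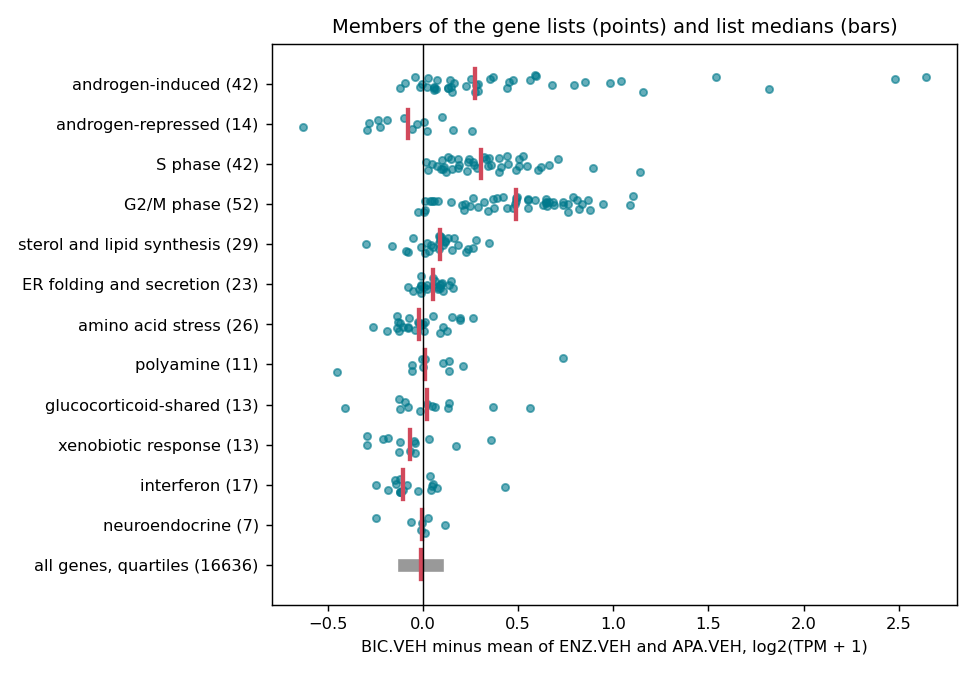
Difference between BIC.VEH and the mean of ENZ.VEH and APA.VEH in log2(TPM + 1) for each tested member (points) of 12 gene lists, with list medians (red bars) and, at the bottom, the quartiles of all 16636 genes (grey). The medians of the androgen-induced, S phase and G2/M lists, at 0.28, 0.30 and 0.49, stand to the right of the other lists.

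Proliferation genes also had higher values with bicalutamide, with no single gene past the limma test. Of 42 S phase genes all 42 had a higher value than with the later compounds (median 0.30), 18 at an unadjusted p below 0.05, and bicalutamide was highest in both replicates for 35. Of 52 G2/M genes 51 had a higher value (median 0.49), 32 at an unadjusted p below 0.05, and bicalutamide was highest in both replicates for 43. Over all genes 45.5% had a higher value, 3.07% were higher at an unadjusted p below 0.05 and 13.9% were highest in both replicates. RRM2, a subunit of ribonucleotide reductase, was at 12.3 and 41.4 TPM in BIC.VEH, 2.73 and 26.6 TPM in ENZ.VEH, 3.52 and 27.8 TPM in APA.VEH and 8.87 and 34.98 TPM in VEH (difference 1.14, SE 0.35, adjusted p = 0.60). TOP2A, the topoisomerase that untangles replicated chromosomes, was at 5.44 and 21.6 TPM in BIC.VEH, 0.68 and 12.5 TPM in ENZ.VEH, 1.54 and 16.5 TPM in APA.VEH and 4.10 and 17.1 TPM in VEH (difference 1.10, SE 0.31, adjusted p = 0.52). The replicates stood further apart than the compounds, and within each replicate bicalutamide was highest. CDC45, part of the replicative helicase, and UBE2C, which drives exit from mitosis, had differences of 0.89 (adjusted p = 0.35) and 1.08 (adjusted p = 0.76).

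The mean G2/M level was 3.12 and 4.30 in BIC.VEH, 2.30 and 3.95 in ENZ.VEH, 2.64 and 3.98 in APA.VEH and 2.96 and 4.09 in VEH, as mean log2(TPM + 1). The list median was 0.60 in replicate 1 and 0.33 in replicate 2. Against VEH, whose libraries these values share, it was 0.21 for bicalutamide, −0.33 for enzalutamide and −0.19 for apalutamide. Enzalutamide had the lowest mean level in both replicates, whereas for the androgen-induced list the lowest was apalutamide. DHT raised 46 of the 52 G2/M genes and 35 of the 42 S phase genes. In bulk libraries fewer cycling cells and less of these RNAs per cell cannot be told apart.

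**Figure D5:**
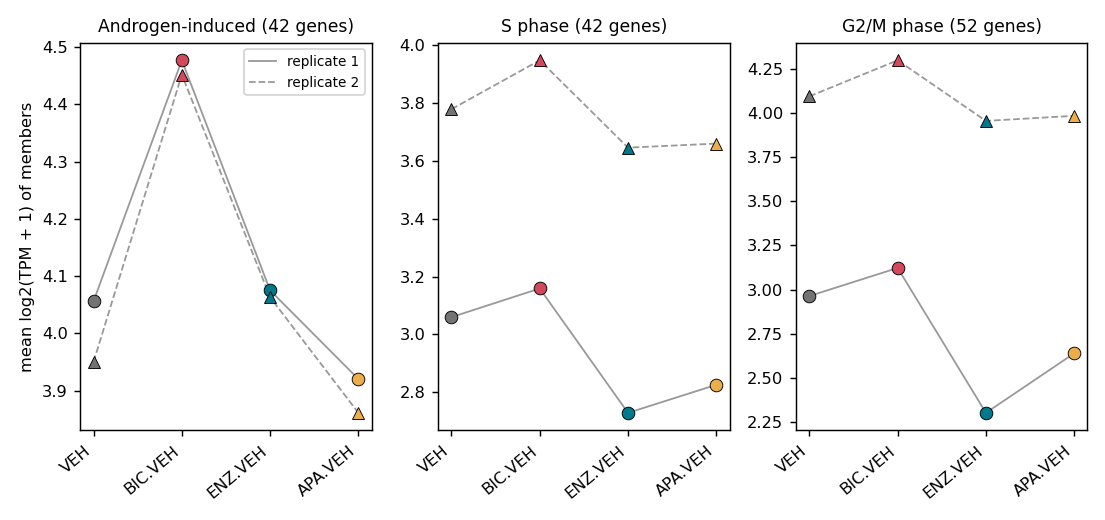
Mean log2(TPM + 1) over the members of 3 lists (vertical axes, not starting at 0) in each library of the vehicle and of each compound alone, with circles and full lines for replicate 1 and triangles and dashed lines for replicate 2. BIC.VEH is the highest group in each panel and replicate, while the replicates are close for the androgen-induced list and far apart for G2/M, at 3.12 and 4.30 in BIC.VEH.

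The other lists held no called gene by limma, with 0.0842% of all genes called. Of 30 genes of sterol and lipid synthesis 29 were tested and 23 had a higher value with bicalutamide (median 0.09, 2 higher and 1 lower at an unadjusted p below 0.05). INSIG1, a regulator of cholesterol synthesis, was at 29.7 and 36.9 TPM in BIC.VEH, 22.2 and 31.2 TPM in ENZ.VEH and 25.4 and 30.7 TPM in APA.VEH (difference 0.28, adjusted p = 0.88). At the other end of the list were STARD4, a cholesterol carrier, with −0.30, and TM7SF2, a sterol reductase, with −0.16. Of 23 genes of protein folding and secretion in the endoplasmic reticulum 16 had a higher value (median 0.05). Of 11 polyamine genes 7 had a higher value (median 0.01), with ARG2, mitochondrial arginase, at 72.6 and 132 TPM in BIC.VEH, 40.3 and 99.9 TPM in ENZ.VEH and 36.6 and 78.9 TPM in APA.VEH (difference 0.73, adjusted p = 0.12) and AMD1, a decarboxylase of spermidine synthesis, with 0.21. Among 13 tested of 15 genes that glucocorticoids also induce, the median was 0.02, with ZBTB16, a zinc finger transcription factor, at 0.56 (adjusted p = 0.64) and the metallothionein MT2A at −0.41 (adjusted p = 1.0). MT2A was at 291 and 118 TPM in BIC.VEH, 646 and 160 TPM in ENZ.VEH and 268 and 134 TPM in APA.VEH. Its single high value was in replicate 1 of enzalutamide.

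For the remaining lists, against −0.01 over all genes, the medians were −0.02 for 26 tested of 29 amino acid stress genes, −0.07 for 13 of 27 xenobiotic response genes, −0.10 for 17 of 20 interferon genes and −0.01 for 7 of 21 neuroendocrine genes. In replicates 1 and 2 the median was −0.20 and −0.01 for the xenobiotic response genes and −0.16 and 0.001 for the interferon genes. Over all genes it was −0.04 and 0.01. In the amino acid stress genes the median of −0.02 joined opposite pairs. The median was −0.16 for bicalutamide minus enzalutamide, 0.13 for bicalutamide minus apalutamide and −0.23 for apalutamide minus enzalutamide. In the last pair 1 of 26 genes had a higher value with apalutamide, against 7531 of 16636 over all genes. The mean level of this list, as mean log2(TPM + 1), was 5.848 and 5.458 in ENZ.VEH (replicates 1 and 2). It was 5.553 and 5.416 in BIC.VEH and 5.396 and 5.291 in APA.VEH. The order of the compounds was the same in both replicates, but enzalutamide stood much further above the others in replicate 1. The stress gene DDIT3 had 55.1 and 40.1 TPM in BIC.VEH, 108 and 43.6 TPM in ENZ.VEH and 53.0 and 41.2 TPM in APA.VEH, with the single high value in replicate 1 of enzalutamide (difference −0.26, adjusted p = 1.0). MTHFD2, a mitochondrial folate enzyme, had 0.26, CYP1A1, a target of the aryl hydrocarbon receptor, −0.29 and ENO2, neuron-specific enolase, −0.25 (adjusted p from 0.92 to 0.93).

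With DHT present, in 6 other libraries, 48 genes passed the test between BIC.DHT and the mean of ENZ.DHT and APA.DHT (0.289%), 36 higher (0.216%) and 12 lower (0.0721%). All 13 genes called higher without DHT had a higher value with bicalutamide there too, and 9 of them were called. KLK3 was at 845 and 445 TPM in BIC.DHT, 296 and 115 TPM in ENZ.DHT and 340 and 90.3 TPM in APA.DHT (difference 1.76, adjusted p = 0.04), so that enzalutamide and apalutamide overlapped. FKBP5 passed in this setting, at 16.8 and 20.1 TPM against 8.56, 13.6, 9.47 and 14.4 TPM (difference 0.67, adjusted p = 0.04), as did IFI27L2, which was lower (−1.18, adjusted p = 0.017). The change of the difference with DHT was itself tested and no gene passed (0% by limma, with 420 genes, 2.52%, at an unadjusted p below 0.05). For KLK3 the difference without DHT minus that with DHT was 0.88 (unadjusted p = 0.049, adjusted p = 0.98). ARHGEF26 had 0.59 (unadjusted p = 0.00026, adjusted p = 0.88, limma) and AL357139.2 had 0.55 (unadjusted p = 0.0041, adjusted p = 0.98). RNU5E-1 had −1.74 (unadjusted p = 4.9e-06, adjusted p = 0.082). Among the genes called higher, PMEPA1 had −0.135, ELOVL5 −0.088 and SLC45A3 −0.002.

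The calls rest on few libraries. Without replicate 1 of BIC.VEH 3 genes passed and without replicate 2 of BIC.VEH 1 gene passed, against 14, while a fit without the replicate number as a block and one on the 6 libraries alone each called 2. A fit on the 8 libraries without DHT called 19, 13 higher and 6 lower, of which 8 were among the 14. In the pair of bicalutamide and apalutamide 6 and 2 genes passed without replicates 1 and 2 of BIC.VEH and 3 without replicate 1 of APA.VEH, and the call of ARHGEF26 between bicalutamide and enzalutamide was lost without either BIC.VEH library or replicate 1 of ENZ.VEH. The 12 described genes called higher stayed higher under all 16 alternatives. This was largely set by their selection, since bicalutamide was highest in both replicates for each of them, and it is not separate support. Of these alternatives ARHGEF26 was called in 14, KLK4 in 12, KLK3 in 11 and KLK2 in 4.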

How the data were processed

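RNA-seq was read as the deposited table of TPM in 16 LNCaP libraries. Per the labels and the study's methods, the authors checked reads with FastQC 0.11.9, trimmed them with Trim Galore 0.6.5, aligned them with STAR 2.7.2b to GRCh38 with the Ensembl 99 and Gencode 33 annotation, and estimated TPM with RSEM 1.3.3 from poly-A selected, stranded libraries sequenced as read pairs of 125 bases. TPM is relative, so that a few abundant genes can shift all others, and it keeps no depth.

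Genes reaching a TPM of 1 in 2 or more of the 16 libraries were tested on log2(TPM + 1), a scale that understates changes of low genes. limma 3.58.1 (R 4.3.3) with a trend was fitted to 8 group means with the replicate number as a block, leaving 7 residual degrees of freedom, with Benjamini-Hochberg adjustment inside each contrast. The block belongs to the definition of the comparison. All 16 libraries share in the estimate of the spread. An exact permutation of 2 against 4 libraries cannot reach 0.05 and was not used.

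Genes were named as follows: KLK3, KLK2, TMPRSS2 and FKBP5; the 10 highest and 10 lowest called genes with mean TPM of 5 or more and separated groups, filled with genes not called; the 2 highest and 2 lowest called per pair; and the 2 highest and 2 lowest members of each list with mean TPM of 5 or more. Of these, members with small differences and unannotated features are left unnamed. The comparison, the lists and the rule were chosen with earlier results of these data known. The gene SARS of the stress list was not matched. One called gene and 1 list member are not reported here. All 16 sample columns were used. In simulated data of 16636 genes, 200 genes with mean TPM of 5 or more were changed. The noise was normal, independent between libraries and of the fitted spread. There the fit called 88% of genes changed by 1 and 98% of genes changed by 2 on the log2 scale, with 10 unchanged genes called. These shares do not cover lower genes, and the real libraries may vary otherwise. Promoter sequences and positions are from RefSeq (GRCh38.p14). Alternatives changed the block, libraries, pseudocount, filter, scaling and trend.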

Additional observations from a re-analysis of the deposited data

How the results depend on the processing

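Against 14 genes called for bicalutamide against both later compounds, 22 were called with no filter, 2 with no replicate block, 2 on the 6 libraries alone and 0 on these 6 with enzalutamide and apalutamide as 1 group (limma, 1462 at an unadjusted p below 0.05, a variant chosen after seeing the data). Leaving out each library gave 1 to 11. For bicalutamide against apalutamide (14 called), no replicate block gave 2, the 6 libraries alone 9, no filter 26 and leaving out each library 2 to 17. For bicalutamide against enzalutamide (1 called), the fit with no replicate block gave 0, no filter 16 and leaving out each library 0 to 2. For apalutamide against enzalutamide (1 called), the 6 libraries and the 8 without DHT each gave 5, a pseudocount of 0.1 gave 0, no filter 8, a filter of TPM 5 gave 0 and leaving out each library left 1. For the change of the difference with DHT (0 called), no filter gave 3 and limma without trend 1. Leaving out each library gave a median of 0.094 to 0.125 for DHT-raised genes, −0.134 to −0.071 for DHT-lowered genes and 0.202 to 0.321 for the androgen-induced list. In the same fits NDRG1 (−0.04 with all libraries) ranged from −0.151 to 0.071, above 0 without replicate 2 of BIC.VEH or replicate 1 of ENZ.VEH or APA.VEH, and ACPP (−0.121) from −0.252 to 0.01, above 0 without replicate 2 of BIC.VEH. The lone sample left in a group by such a fit is assumed to vary like the others. The cause of the other changes was not tested. As to the pairing by replicate number, deviations from the group means correlated across genes between the 3 compounds, at r of 0.50 to 0.55, and the labels do not say what the numbers 3 and 7 mark. The alternatives on 6 or 8 libraries could not be run for the change with DHT. Median-ratio scaling moved the median of all genes from −0.01 to 0. TPM gives no depth, so counting error is unknown.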
